A study of Mus musculus with 8 samples.

Results

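A set of 4 members of the serpin family was followed across aged mouse oligodendrocytes and microglia. They were Serpina3n, Serpinb1a, Serpind1 and Serpine2, taken as a named list. The tables used here list 23 genes of this family among 20354 genes, and the 4 genes were described in each oligodendrocyte cluster of 8 libraries and in each microglia cluster of the 4 libraries labelled Rag1-/-. Serpina3n and Serpind1 were higher in white than in gray matter oligodendrocytes, and Serpinb1a overlapped between the wild-type tissues. Serpine2 was lower in white matter oligodendrocytes, at a level near the limit of detection, and far more abundant in microglia.

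All libraries came from 24-month-old mice and were made from live sorted cells with 3′ tag sequencing on the 10× platform. Gray matter was frontal cortex, and white matter combined the corpus callosum, the optic tract and the medial lemniscus. Wild-type C57BL/6 mice gave 2 gray and 2 white matter libraries, and mice labelled Rag1-/-, which lack mature T and B lymphocytes, gave 1 gray and 3 white matter libraries. Cells from several mice were pooled for each wild-type library, and the gray and white matter libraries of a wild-type batch came from the same pool. The strain of the Rag1-/- mice is given as NOD.129S7(B6)-Rag-1tm1Mom/J in the sample labels, but the study's methods name a B6 background for the same allele. The Rag1-/- libraries were made in experiments of their own and read with other versions of Cell Ranger than the wild-type libraries. Genotype, strain and experiment therefore cannot be told apart. Among the Rag1-/- libraries, the gray matter library and white matter library 1 were of batch 1, and white matter libraries 2 and 3 of batch 2. The study read these batches with different versions of Cell Ranger and different UMI limits. The part of batch in the tissue differences of Rag1-/- mice was not tested.

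Serpins are protease inhibitors that offer a bait loop to a serine protease and trap it in a covalent complex. Serpina3n is a secreted acute-phase protein that inhibits granzyme B and cathepsin G and is known as a marker of reactive astrocytes and of disease-associated oligodendrocytes. Serpinb1a stays inside the cell and inhibits neutrophil elastase, proteinase 3 and cathepsin G, Serpind1 (heparin cofactor II) inhibits thrombin, and Serpine2 (protease nexin-1) inhibits thrombin and the plasminogen activators.

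The 4 genes lie on separate chromosomes. In GRCm38 with GENCODE vM21, Serpina3n spans chr12:104406729-104414329 on the plus strand, Serpinb1a spans chr13:32842092-32851185 on the minus strand, Serpind1 spans chr16:17331371-17343575 on the plus strand and Serpine2 spans chr1:79794197-79861180 on the minus strand. The promoter windows of Serpina3n and Serpind1, which were higher in white matter, and of Serpine2, whose counts were lower there, are shown side by side. The Serpine2 counts in oligodendrocytes lay near the limit of detection, as described below, and the part of other cells' RNA in their difference was not tested. Each runs from 250 bases before to 50 bases after the RefSeq start site (GRCm38.p6), 5′ to 3′ on the gene's strand, with CpG dinucleotides in capitals. RefSeq's table held these 3 of the 4 genes, and Serpinb1a had no entry. The windows are chr12:104406458-104406757 for Serpina3n, chr16:17331121-17331420 for Serpind1 and chr1:79858616-79858915, minus strand, for Serpine2.
Serpina3n: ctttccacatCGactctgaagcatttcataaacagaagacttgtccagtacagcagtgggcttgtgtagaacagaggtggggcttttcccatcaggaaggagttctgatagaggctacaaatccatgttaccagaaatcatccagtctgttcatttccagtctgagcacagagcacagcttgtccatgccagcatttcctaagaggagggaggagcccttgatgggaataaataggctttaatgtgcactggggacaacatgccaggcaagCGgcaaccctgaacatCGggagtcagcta
Serpind1: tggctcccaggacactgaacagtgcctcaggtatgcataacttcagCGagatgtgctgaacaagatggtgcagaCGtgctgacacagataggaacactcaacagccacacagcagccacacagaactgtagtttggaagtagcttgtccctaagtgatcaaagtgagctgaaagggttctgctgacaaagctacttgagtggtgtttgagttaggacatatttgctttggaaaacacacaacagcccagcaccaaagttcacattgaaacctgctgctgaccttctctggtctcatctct
Serpine2: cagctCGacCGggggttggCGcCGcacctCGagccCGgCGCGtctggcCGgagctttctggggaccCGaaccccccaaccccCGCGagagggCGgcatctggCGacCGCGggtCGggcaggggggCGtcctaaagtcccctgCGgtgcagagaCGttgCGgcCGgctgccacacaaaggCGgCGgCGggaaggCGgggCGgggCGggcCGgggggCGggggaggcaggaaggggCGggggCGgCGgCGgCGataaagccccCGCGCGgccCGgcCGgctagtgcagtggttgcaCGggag

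The Serpina3n window held 3 CpG dinucleotides at a GC content of 48.7%, and the Serpind1 window held 2 at 47.7%. The Serpine2 window held 41 at 77.7%, more than 96.5% of the 32851 promoters in the table, whose median was 7. Of all promoters, 68.6% held more CpG than that of Serpina3n and 76.7% held more than that of Serpind1. None of the 3 windows held, on either strand, the STAT motif TTCNNNGAA, the AP-1 motif TGANTCA, the TATA motif TATAAA or the ISRE core, GAAA followed after any 2 bases by GAAA, which occurred in 8.30%, 7.81%, 13.6% and 3.44% of all promoters. These are matches of letters in a short window and say nothing about where a factor binds.

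The oligodendrocyte table held 284 to 4106 cells and 2754274 to 44269555 UMIs (unique molecular identifiers, each counting 1 captured RNA molecule) per library, 15604 cells in all, with medians of 8669 to 12926 UMIs per cell. The 6 oligodendrocyte markers summed to 40411 to 47246 UMIs per 1e6 UMIs of the same cells (CPM) in these cells, 6 microglia markers to 48.2 to 350 CPM and 4 T cell markers to 0.0243 to 6.33 CPM. Microglia of the Rag1-/- libraries numbered 7421, and their 6 markers summed to 16078 to 21593 CPM. Libraries shared 21 of 15583 distinct oligodendrocyte barcodes, at most 5 between any 2 of them. Rag1 itself gave 0, 3, 0 and 24 UMIs in the wild-type libraries and 37 to 108 UMIs in the libraries labelled Rag1-/-. Tags come from the 3′ end of a transcript and were not placed relative to the deleted part, so they were not read as a check of the label. Cells outside the oligodendrocyte and microglia tables with at least 3 of the 4 T cell markers numbered 3, 22, 47 and 308 in the wild-type libraries. In the Rag1-/- libraries they numbered 3 in 1 of the 4, with none in the other 3. Only 3 of the 4 markers were listed for the Rag1-/- cells, so all 3 were needed there. The numbers of the genotypes therefore do not rest on an equal rule.

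Serpina3n was much higher in oligodendrocytes of white matter than of gray matter in both genotypes. In wild-type gray matter its level was 19.2 and 12.5 CPM in the 2 libraries, and in wild-type white matter it was 323 and 387 CPM. In Rag1-/- mice the gray matter library held 8.26 CPM and the white matter libraries held 133, 125 and 231 CPM. Every white matter library lay far above every gray matter library, as the plot of serpin levels per library shows. The 3 markers of choroid plexus and ependyma also summed higher in white matter oligodendrocytes, at 48.3 to 55.7 CPM against 17.1 to 18.4 CPM. Of these markers Kl was at 0 to 0.31 CPM, and 2 of the 3 were at 0 in wild-type gray matter library 1. The part of these markers in this result and in that of Serpind1 was not tested. The means were 15.9 ± 4.77 and 355 ± 45.1 CPM in wild-type gray and white matter (SD, n = 2 libraries each) and 163 ± 58.8 CPM in Rag1-/- white matter (n = 3). UMIs were summed per library and tested in 1 fit of all 8 libraries with edgeR's quasi-likelihood test and Benjamini-Hochberg adjustment over 13067 genes, where a gene is called at an adjusted p of 0.05.

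**Figure D1:**
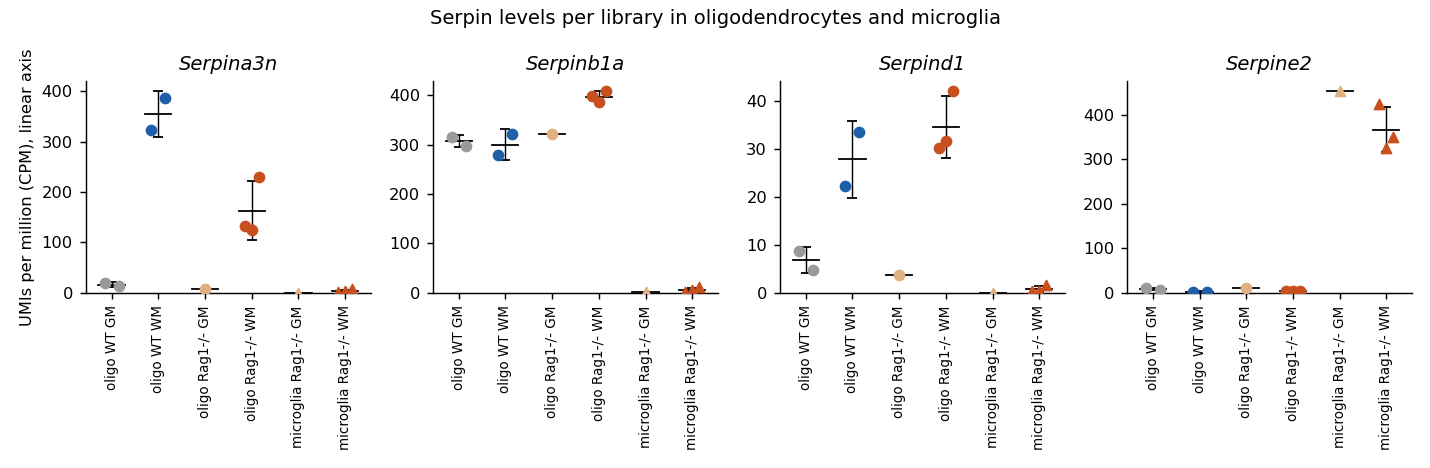
Levels of the 4 serpins in CPM (linear axes from 0) for each library of oligodendrocytes (circles) and of Rag1-/- microglia (triangles), with lines at group means and bars of 1 SD where a group has more than 1 library. Serpina3n reached 323 and 387 CPM in wild-type white matter oligodendrocytes against 19.2 and 12.5 CPM in gray matter, while Serpine2 was at 326 to 453 CPM in microglia and at 1.45 to 10.2 CPM in oligodendrocytes.

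In wild-type mice the log2 difference of Serpina3n between white and gray matter was 4.60 (SE 0.361), which is 24.2-fold, with an adjusted p of 0.00291. Of the 4 serpins, 3 were called in this comparison, beside 1.00% of all genes tested. With the mouse pool as a block the same 3 serpins were called, at a log2 difference of 4.69 (SE 0.111) for Serpina3n. That fit held the 4 wild-type libraries alone and tested 11307 genes, of which it called 1374, against 62 in the same libraries without the block and 131 in the fit of 8 libraries. With the 4 libraries and no block, 1 of the 4 serpins was called. Without wild-type gray matter library 2 the call of Serpina3n was lost at an adjusted p of 0.127, with a log2 difference of 4.26. In Rag1-/- mice the difference was 4.33 (SE 0.471, adjusted p = 0.0155), 20.1-fold, where 2 of the 4 serpins and 0.436% of all genes were called and the single gray matter library was assumed to vary like the other groups. The difference between the 2 tissue differences was −0.27 (SE 0.537, adjusted p = 1.00). No serpin and 0% of all genes were called there with edgeR, although 236 genes had an unadjusted p under 0.05 and DESeq2 called 3 genes.

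The share of oligodendrocytes with at least 1 Serpina3n UMI followed the level. It was 10.2% and 10.7% in wild-type gray matter, 58.7% and 59.4% in wild-type white matter, 6.26% in Rag1-/- gray matter and 39.8%, 39.9% and 46.5% in Rag1-/- white matter. Cells were then thinned to 2000 UMIs each, so that depth did not differ, and 2 to 27 shallower cells per library were left out. The shares became 3.07% and 2.14% in wild-type gray, 28.3% and 32.2% in wild-type white, 1.34% in Rag1-/- gray and 16.6%, 14.0% and 21.9% in Rag1-/- white matter. The wild-type tissues differed by 27.7 percentage points and did not overlap, with p = 0.333 in an exact two-sided permutation test over libraries, the smallest that 2 against 2 libraries can give. As background, cells with T cell markers were assumed to lack the gene. A Serpina3n UMI was found in 2.13% of 47 such cells in wild-type white matter library 1 and 0% of 22 in gray matter library 2. In wild-type white matter library 2 it was found in 8.77% of 308 such cells. Their median depth was 6562 UMIs, against 59.4% of oligodendrocytes at 10256 UMIs. These 308 cells held 133 Serpina3n UMIs, and their oligodendrocyte markers were at 16.9% of the oligodendrocyte level. Whether the UMIs came from free RNA or from droplets with more than 1 cell was not tested. Cells with at least 5 Serpina3n UMIs made up 21.7% and 24.4% of wild-type white matter oligodendrocytes, 7.36% to 14.7% of those in Rag1-/- white matter and at most 0.352% of those in gray matter.

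The authors' clusters of oligodendrocytes differed in Serpina3n. They are named Oligo1a to Oligo1c, Oligo2a to Oligo2c, age-related oligodendrocytes (ARO) and IFN-responsive oligodendrocytes (IRO). They were drawn from all genes, and the study uses Serpina3n itself to mark ARO, so the order of the clusters is a description without a test. Over white matter libraries in which a cluster had 20 cells or more, the mean level was 719 ± 167 CPM in ARO (SD, n = 5), 670.1 ± 255 CPM in Oligo2c (n = 5) and 256 ± 68.2 CPM in IRO (n = 4). The other 5 clusters had means of 55.6 to 83.2 CPM. ARO and Oligo2c overlapped over the libraries, Oligo2c lay above IRO, IRO lay above Oligo2a, and each neighbouring pair among the lower 5 overlapped. ARO held 787 and 910 CPM in wild-type white matter and 468, 652 and 777 CPM in Rag1-/- white matter, and Oligo2c held 842 and 992 CPM against 368, 481 and 668 CPM.

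**Figure D2:**
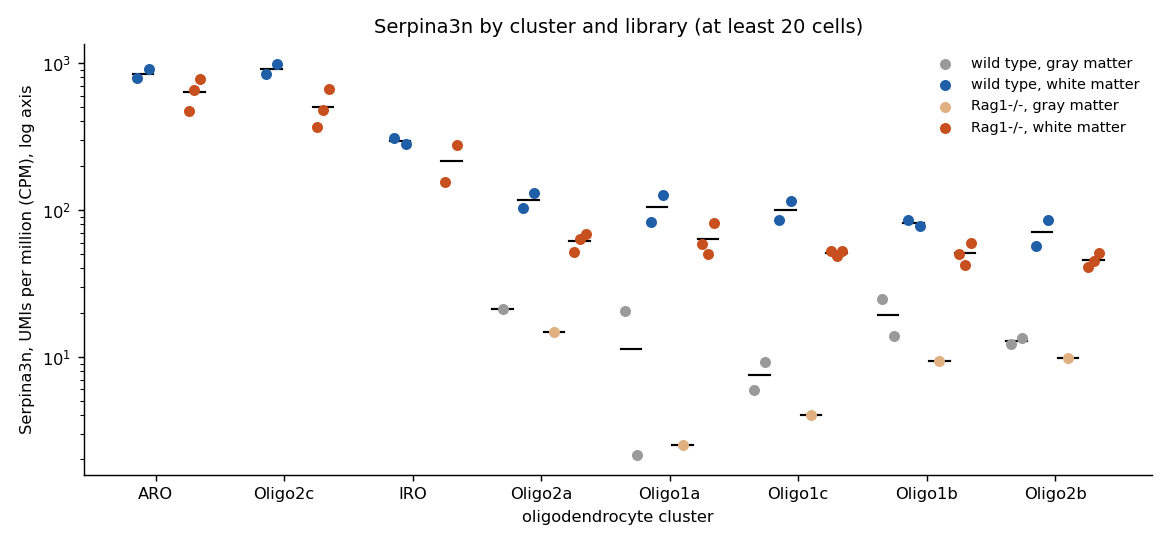
Serpina3n in CPM (log axis) in each oligodendrocyte cluster, with 1 point per library of at least 20 cells and lines at group means. ARO and Oligo2c lie highest, at 368 to 992 CPM, and within the 5 lower clusters all gray matter points, at 2.14 to 24.9 CPM, lie below all white matter points, at 41.1 CPM or more.

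Most Serpina3n molecules of white matter oligodendrocytes came from a minority of the cells. ARO and Oligo2c together made up 28.9% and 30.1% of wild-type white matter oligodendrocytes and held 78.4% and 79.3% of the Serpina3n UMIs. In Rag1-/- white matter they were 20.7%, 13.2% and 22.9% of the cells and held 69.1%, 65.0% and 78.7% of the UMIs. In gray matter these clusters held at most 2 cells per library, or up to 0.704% of oligodendrocytes. A Serpina3n-positive ARO cell held 10.7 and 10.9 UMIs on average in wild-type and 5.01, 9.72 and 9.06 in Rag1-/- white matter, whereas positive Oligo2b cells held 1.70 and 2.28 against 1.37, 1.85 and 1.74 UMIs.

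**Figure D3:**
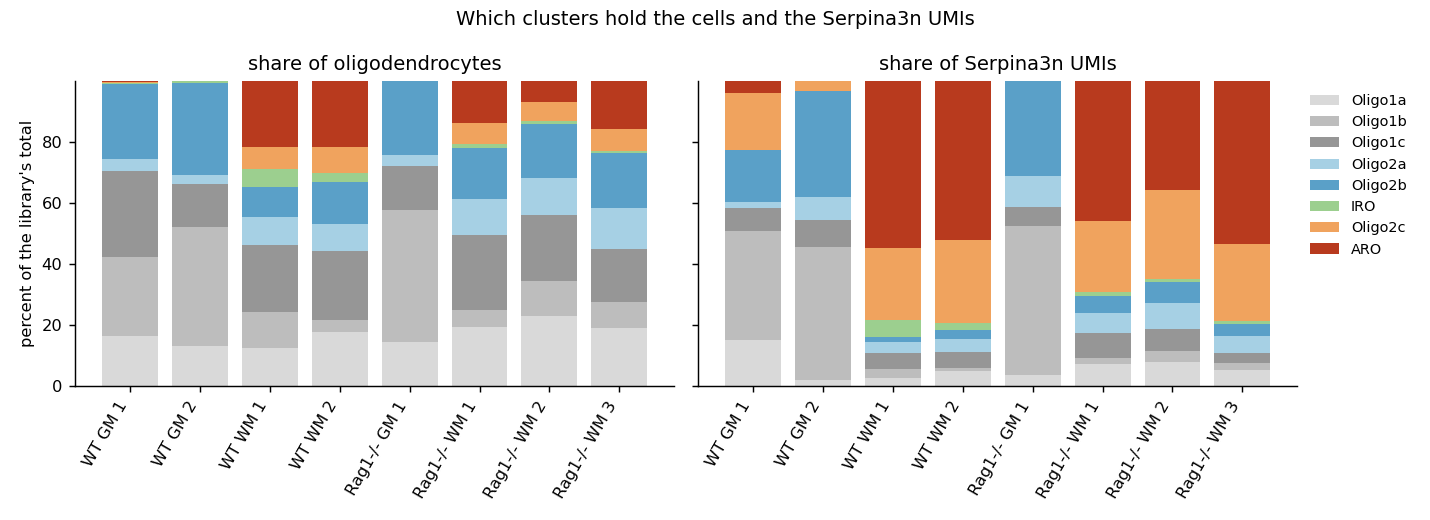
Share of each library's oligodendrocytes (left) and of its Serpina3n UMIs (right) by cluster, in percent. ARO and Oligo2c, at the top of each bar, were 13.2% to 30.1% of the cells and 65.0% to 79.3% of the Serpina3n UMIs in white matter, and at most 0.704% of the cells in gray matter.

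The difference between tissues also held within clusters that both tissues share. In wild-type mice 4 clusters had at least 20 cells in both libraries of each tissue, and Serpina3n was called higher in white matter in all 4 of them. In Oligo1c it was at 5.91 and 9.20 CPM in gray and 84.8 and 114 CPM in white matter, a log2 difference of 3.66 (SE 0.277, adjusted p = 1.4e-05). In Oligo2b it was at 12.2 and 13.3 CPM against 56.6 and 84.9 CPM, a log2 difference of 2.53 (SE 0.248, adjusted p = 0.000215). Oligo1a and Oligo1b showed the same direction with more spread. Oligo1a held 20.4 and 2.14 CPM in gray and 82.4 and 126 CPM in white matter, and its log2 difference was 4.05 (SE 0.592, adjusted p = 0.0444). Oligo1b held 24.9 and 13.9 CPM against 86.0 and 77.3 CPM, and its log2 difference was 2.29 (SE 0.286, adjusted p = 0.0232). The share of all genes called was 0.0474% in Oligo1a, 0.0295% in Oligo1b, 0.247% in Oligo1c and 0.154% in Oligo2b. Wild-type cells with microglia markers also differed in Serpina3n, at 0.751 and 0.426 CPM in gray and 9.36 and 49.0 CPM in white matter. Cells with T cell markers held 0 CPM in wild-type gray matter library 2 and 10.6 and 55.1 CPM in the white matter libraries. The part of RNA from other cells in the differences within clusters was not tested.

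The calls were not equally firm. That of Oligo1c held under each of 15 alternatives, with an adjusted p of at most 0.00122. That of Oligo2b was lost without wild-type gray matter library 2 (adjusted p = 0.0713), and that of Oligo1b without wild-type gray matter library 1 (0.0684) or 2 (0.652) or Rag1-/- white matter library 1 (0.117) or 2 (0.0613). That of Oligo1a was lost with DESeq2 (0.251), with total UMIs as the only scaling (0.0572), and without wild-type gray matter library 2 (0.296), wild-type white matter library 2 (0.62) or Rag1-/- white matter library 1 (0.142), 2 (0.112) or 3 (0.0902). A fit of the 4 wild-type libraries alone with the mouse pool as a block, which tested fewer genes, called 48, 36, 253 and 197 genes in Oligo1a, Oligo1b, Oligo1c and Oligo2b, against 5, 3, 26 and 17 in the fits of all groups, and Serpina3n was called in each. The block and the smaller set of libraries were changed together there. The clusters were drawn with this gene among others.

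Serpina3n was lower in Rag1-/- than in wild-type white matter in every library, but the difference did not pass the test over all oligodendrocytes. The 3 Rag1-/- libraries, at 125 to 231 CPM, lay below both wild-type libraries, at 323 and 387 CPM, and the log2 difference was −1.06 (SE 0.258, adjusted p = 0.183). This comparison uses the same wild-type white matter libraries as the tissue comparison. None of the 4 serpins was called in it, beside 0.911% of all genes. The thinned share of positive cells was 12.8 percentage points lower, with p = 0.2 in an exact two-sided permutation test, the smallest that 3 against 2 libraries can give, and 0.444 after adjustment over the 8 shares tested. Serpina3n became called without Rag1-/- white matter library 3 (log2 difference −1.41, adjusted p = 0.00698) and without the filter on low counts (0.0458).

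Within clusters the Serpina3n difference between genotypes had the same sign in all 8, from −0.36 in ARO to −0.94 in Oligo1c. It was called in Oligo1c, where the levels were 84.8 and 114 CPM in wild-type and 52.6, 48.9 and 52.3 CPM in Rag1-/- white matter (log2 difference −0.94, SE 0.156, adjusted p = 0.00473). That call was lost without wild-type white matter library 2 (adjusted p = 0.298). The next closest was Oligo2a at −0.89 (SE 0.178, adjusted p = 0.0508), which was called under 7 of 12 alternatives. Oligo2c differed by −0.80 (SE 0.203, adjusted p = 0.141), Oligo2b by −0.67 (0.176, 0.155), Oligo1a by −0.71 (0.321, 1.00) and Oligo1b by −0.61 (0.224, 0.566). ARO differed by −0.36 (SE 0.187, adjusted p = 0.896) and IRO by −0.37 (0.268, 0.998), the latter over 2 libraries of each genotype, and the IRO difference was 0.02 without Rag1-/- white matter library 1. The share of all genes called was 0.730%, 0.571% and 0.920% in Oligo1a to Oligo1c, 0.739%, 0.870% and 0.891% in Oligo2a to Oligo2c, 0.990% in ARO and 0.614% in IRO. The 8 clusters share their libraries and are not independent of each other.

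**Figure D4:**
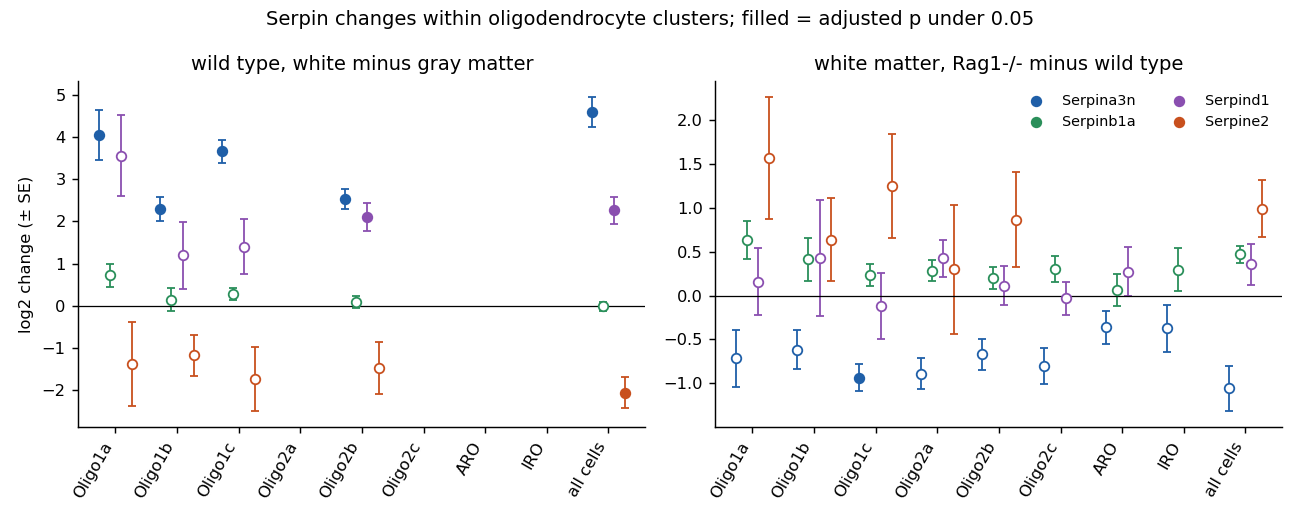
Log2 differences of the 4 serpins (± SE) within oligodendrocyte clusters and over all oligodendrocytes, for white minus gray matter in wild-type mice (left) and Rag1-/- minus wild-type in white matter (right), with filled points at an adjusted p under 0.05. Serpina3n is called in all 4 clusters tested on the left, and in Oligo1c on the right, where all its points lie below 0.

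Serpinb1a was found in most oligodendrocytes of both tissues. Its level was 316 and 298 CPM in wild-type gray, 279 and 322 CPM in wild-type white, 321 CPM in Rag1-/- gray and 398, 386 and 408 CPM in Rag1-/- white matter. The wild-type tissues overlapped, and the log2 difference between them was −0.01 (SE 0.109, adjusted p = 1.00). The sign of this difference changed when single libraries were left out (−0.13 to 0.10). A Serpinb1a UMI was found in 64.4% to 72.4% of wild-type oligodendrocytes and in 68.9% to 78.2% of Rag1-/- oligodendrocytes. Of the cells with T cell markers in wild-type white matter libraries 1 and 2, 10.6% and 13.6% held one. Their median depths were 7082 and 6562 UMIs, against 11943 and 10256 in oligodendrocytes. These cells may hold Serpinb1a of their own, so their shares are not read as background. The 3 cells with T cell markers in Rag1-/- white matter library 1 held 13 Serpinb1a UMIs, or 611 CPM, with oligodendrocyte markers at 141 CPM.

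All 3 Rag1-/- white matter libraries were above both wild-type white matter libraries in Serpinb1a. The log2 difference was 0.47 (SE 0.0995), or 1.38-fold, and did not pass the test (adjusted p = 0.103), although DESeq2 called it (adjusted p = 0.00498). The thinned share of positive cells was 8.25 percentage points higher in Rag1-/- white matter (exact two-sided permutation p = 0.2, the smallest possible). Within the 8 clusters the difference between genotypes was positive throughout, at 0.06 in ARO to 0.63 in Oligo1a, and called in none. In Oligo1a the wild-type levels were 68.8 and 77.0 CPM in gray and 75.8 and 152 CPM in white matter, so that the tissues overlapped and white matter library 2 alone stood apart. The log2 difference there was 0.73 (SE 0.272, adjusted p = 1.00), and in the fit of the 4 wild-type libraries with the mouse pool as a block, which has 1 residual degree of freedom, it was 0.78 (SE 0.181) and called (adjusted p = 0.0363).

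Across clusters of white matter, Serpinb1a was highest in Oligo2a at 719 ± 65.8 CPM (SD, n = 5 libraries), where 91.1% to 100% of the cells held a UMI. Oligo2b followed at 507 ± 30.8 CPM and Oligo2c at 447 ± 64.6 CPM. The range of Oligo2a lay above that of Oligo2b, and Oligo2b exceeded Oligo2c in 5 of 5 libraries with overlapping ranges. ARO, at 166 ± 27.99 CPM, and Oligo1a, at 154 ± 46.2 CPM, were lowest and overlapped, so that ARO, the cluster with the highest mean of Serpina3n, was among the lowest in Serpinb1a. In the 2 gray matter libraries with at least 20 Oligo2a cells, it was also the highest of the clusters of that size, at 632 CPM in wild-type library 2 and 721 CPM in Rag1-/- mice. Of the 50-base windows in the last 500 bases of Serpinb1a transcripts, 2.77% also occur in Serpinb1b or Serpinb1c, against 0% for the other 3 members. A small part of its tags may therefore not be assignable to Serpinb1a alone.

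Serpind1 was higher in white matter of both genotypes at a low level. It was at 8.71 and 4.82 CPM in wild-type gray and 22.2 and 33.4 CPM in wild-type white matter. In Rag1-/- mice it was at 3.62 CPM in gray and 30.2, 31.7 and 42.0 CPM in white matter. No gray matter library reached the lowest white matter library. The log2 difference was 2.27 (SE 0.323, adjusted p = 0.0169), or 4.81-fold, in wild-type and 3.28 (SE 0.411, adjusted p = 0.0193), or 9.74-fold, in Rag1-/- mice. The wild-type call was lost without gray matter library 2 (adjusted p = 0.283), without white matter library 2 (0.0843) and with only the 2 groups in the fit (0.0616). The tissue differences of the genotypes did not differ by the test (1.02, SE 0.521, adjusted p = 1.00), nor did white matter between genotypes (0.35, SE 0.234, adjusted p = 0.76), where the libraries overlapped.

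Cells with a Serpind1 UMI made up 5.99% and 4.38% of wild-type gray and 15.2% and 18.9% of wild-type white matter oligodendrocytes. As background, 2.13% of 47 and 3.25% of 308 cells with T cell markers in white matter libraries 1 and 2 held one, and 0 of 22 in gray matter library 2, at median depths of 7082, 6562 and 8602 UMIs. After thinning the difference was 3.04 percentage points (exact two-sided permutation p = 0.333, the smallest possible). Serpind1 was highest in Oligo2c, at 86.8 ± 12.8 CPM, and Oligo2a, at 84.2 ± 22.0 CPM (SD, n = 5 libraries each), which overlapped. Both ranges lay above that of Oligo2b, at 26.4 ± 2.46 CPM, and ARO held 20.5 ± 6.35 CPM. The Oligo1 clusters held 6.78 to 9.21 CPM on average. Oligo2a and Oligo2c were 16.4% to 20.5% of white matter oligodendrocytes and held 60.2% to 69.9% of their Serpind1 UMIs, and in gray matter they were 3.22% to 4.23% of the cells and held 31.1% to 41.7% of the UMIs.

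Within clusters Serpind1 was called between wild-type tissues in Oligo2b alone among the 4 clusters tested. The levels there were 10.8 and 4.85 CPM in gray and 25.0 and 26.4 CPM in white matter, a log2 difference of 2.11 (SE 0.329, adjusted p = 0.0130), which was lost without wild-type gray matter library 2 (0.626) or white matter library 2 (0.708). In Oligo1a, Oligo1b and Oligo1c the log2 differences were 3.56 (SE 0.955), 1.19 (SE 0.795) and 1.41 (SE 0.643) and did not pass. Between genotypes Serpind1 was called in none of the 7 clusters in which it was tested, with log2 differences of −0.12 to 0.43.

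**Figure D5:**
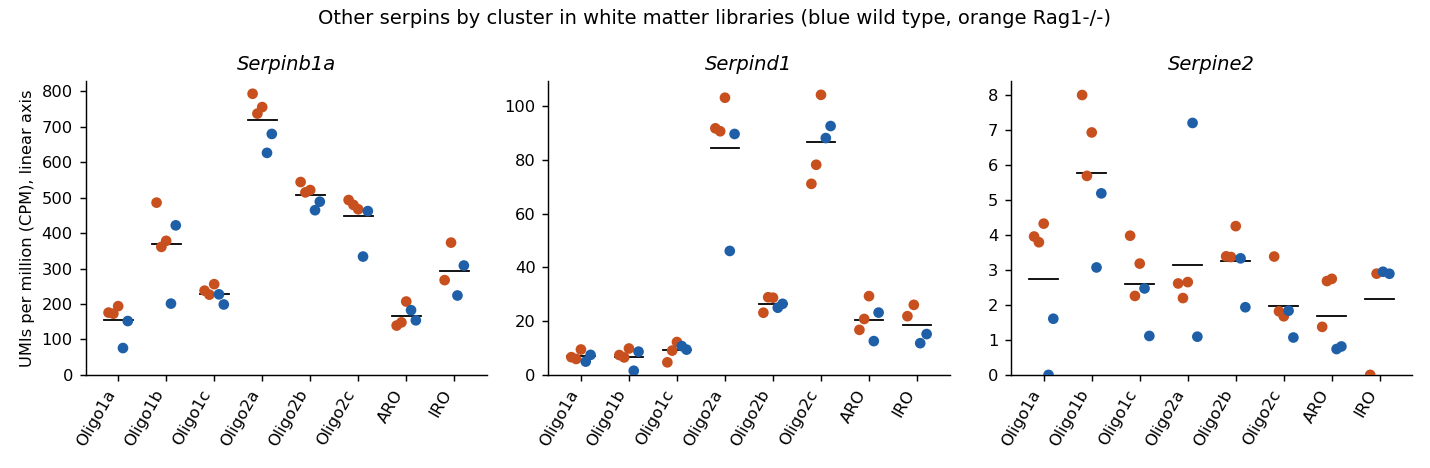
Levels of Serpinb1a, Serpind1 and Serpine2 in CPM (linear axes from 0, each with its own range) by cluster in white matter, for libraries where the cluster had 20 cells or more, with lines at means. Serpinb1a peaks in Oligo2a at 627 to 793 CPM, Serpind1 is highest in Oligo2a and Oligo2c, and Serpine2 stays at or below 8.001 CPM in every cluster.

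Serpine2 was near the limit of detection in oligodendrocytes and abundant in microglia. In oligodendrocytes it was at 10.2 and 5.85 CPM in wild-type gray and 2.50 and 1.45 CPM in wild-type white matter, from 15 to 74 UMIs per library. In Rag1-/- mice it was at 9.92 CPM in gray and 3.44, 3.12 and 3.57 CPM in white matter. Gray matter lay above white matter in both genotypes. The log2 difference between white and gray matter was −2.06 (SE 0.366, adjusted p = 0.0400), or 4.18-fold, in wild-type and −1.53 (SE 0.340, adjusted p = 0.119) in Rag1-/- mice. The wild-type call did not hold without wild-type gray matter library 1 (adjusted p = 0.137) or 2 (0.173), without wild-type white matter library 2 (0.322), without Rag1-/- white matter library 1 (0.064), 2 (0.0864) or 3 (0.081), or with only the 2 groups in the fit (0.222). Within the 4 clusters tested, Serpine2 was lower in white matter by 1.18 to 1.74 on the log2 scale and called in none.

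The 6 astrocyte markers, all detected in every library, were also higher in the same gray matter oligodendrocytes. They summed to 313 and 263 CPM in wild-type gray, 115 and 114 CPM in wild-type white, 263 CPM in Rag1-/- gray and 137, 143 and 160 CPM in Rag1-/- white matter. The 3 markers of oligodendrocyte precursors (OPC) also summed higher in gray matter oligodendrocytes, at 8.15 to 12.3 CPM in the 3 gray matter libraries against 1.83 to 7.35 CPM in the 5 white matter libraries, and the 3 neuron markers at 3.99 to 7.02 CPM against 0.644 to 1.70 CPM. Groups of at least 20 cells outside both tables that carried astrocyte markers held Serpine2 at 302 to 718 CPM, and the 12 cells with OPC markers in Rag1-/- gray matter held 1714 CPM. In the Rag1-/- libraries the oligodendrocyte level of Serpine2 was 2.19% of the microglia level in gray and 0.811%, 0.956% and 1.02% in white matter, and the 6 microglia markers in oligodendrocytes were at 0.669%, 0.647%, 0.376% and 0.576% of their microglia level. The part of other cells' RNA in the Serpine2 difference was not tested. A Serpine2 UMI was found in 9.51% and 5.27% of wild-type gray and in 2.83% and 1.46% of wild-type white matter oligodendrocytes. The white matter shares lay below those of cells with T cell markers in the same libraries, at 6.38% of 47 and 1.62% of 308 cells. The share in gray matter library 2 also lay below the 9.09% of its 22 cells with T cell markers, which rests on 2 UMIs, and gray matter library 1 had 3 such cells. These comparisons rest on 2 to 5 UMIs in the cells with T cell markers. Clusters differed in Serpine2. In wild-type gray matter library 2, Oligo1b held 46 of 74 UMIs, with a UMI in 7.76% of its cells. The share there was 1.37% in Oligo1a, 2.56% in Oligo1c, 2.86% in Oligo2a and 4.73% in Oligo2b. Over white matter libraries the mean was 5.78 CPM in Oligo1b, the highest, and 1.67 CPM in ARO, the lowest. The part of background in these counts was not tested.

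In Rag1-/- microglia, whose fit held these 4 libraries alone with a single gray matter library, Serpine2 was at 453 CPM in gray and 424, 326 and 349 CPM in white matter. A UMI was found in 87.8% of gray and in 82.6%, 72.1% and 71.5% of white matter microglia. White matter microglia thus lay below the gray matter library, but the log2 difference was −0.06 (SE 0.170, adjusted p = 0.908) after scaling, beside 3.13% of all genes called, and none of the 4 serpins was called. Of all genes called in microglia, 340 were higher and 56 lower in white matter. With total UMIs as the only scaling these were 217 and 213, the median over all genes moved from 0.02 to −0.22, and Serpine2 was at −0.30 (adjusted p = 0.297). The sign of the Serpine2 difference changed without Rag1-/- white matter library 2 (0.02). Wild-type cells with microglia markers, which have no authors' clusters here, held 367 and 372 CPM in gray and 300 and 345 CPM in white matter.

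Every microglia cluster held Serpine2. The authors' homeostatic cluster 1 had 456 CPM in gray and 462, 380 and 404 CPM in white matter, and homeostatic cluster 2 had 356 CPM and 430, 333 and 357 CPM. White matter-associated microglia (WAM) held 481 CPM in gray and 404, 269 and 270.4 CPM in white matter. The cluster named Activated held 379 CPM in gray and 282, 221 and 213 CPM in white matter, the lowest value of the 5 clusters in each of the 3 white matter libraries. IFN-responsive microglia (IRM) held 345 CPM in white matter library 1, and their other libraries had fewer than 20 cells. In homeostatic cluster 1, 77.3% to 88.3% of the cells held a UMI at median depths of 4865 to 7333 UMIs, and in the Activated cluster 43.0% to 77.8% did at 2287 to 5865 UMIs. After thinning to 2000 UMIs these shares were 50.2% to 58.1% and 31.7% to 49.3%. Thinning left out 38 of 100 and 28 of 87 Activated cells in Rag1-/- white matter libraries 2 and 3 as too shallow.

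The other 3 members were low in microglia. Serpina3n had 2 UMIs in gray and 26, 13 and 52 UMIs in white matter microglia, or 0.19, 1.16, 2.64 and 6.52 CPM. Serpinb1a was at 1.42, 2.14, 5.49 and 10.5 CPM in the same order, and Serpind1 at 0, 0.312, 0.407 and 1.505 CPM. The Serpina3n level was 2.30%, 0.868%, 2.12% and 2.83% of that in oligodendrocytes of the same library, and the 6 oligodendrocyte markers in microglia were at 0.863%, 0.823%, 1.94% and 3.35% of theirs. For Serpinb1a these shares were 0.443%, 0.538%, 1.42% and 2.58%, and for Serpind1 0%, 1.03%, 1.28% and 3.58%.

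The white-to-gray log2 differences of these serpins in microglia were 4.30 (SE 1.38, adjusted p = 0.181) for Serpina3n and 2.28 (SE 0.931, adjusted p = 0.3002) for Serpinb1a. DESeq2 called Serpina3n (adjusted p = 0.0336). Without Rag1-/- white matter library 1, both were called. That library is the only one of white matter from the batch of the gray matter library. Without it tissue and batch coincide and cannot be told apart. The summed oligodendrocyte markers moved with both genes, at 356 CPM in gray and 372, 893 and 1555 CPM in white matter microglia. The part of these markers in the result was not tested. Serpind1 had 0 UMIs in 1732 gray matter microglia, which allows a level of up to 0.285 CPM at 3 counts, and 7, 2 and 12 UMIs in white matter.

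Serpind1 was more often detected in cells that held Serpinb1a or Serpina3n. Among cells with a Serpinb1a UMI, 3.71% to 27.4% per library also held Serpind1, against 0.324% to 9.09% of cells without one. Among cells with a Serpina3n UMI, 5.83% to 30.8% held Serpind1, against 2.53% to 16.7% of the others. Both shares were higher among positive cells in 8 of 8 libraries, and positive cells were also deeper. Median UMIs were 9310 to 13701 in Serpinb1a-positive cells against 7108 to 10507 in the others. For Serpina3n they were 9429 to 14251 in positive cells against 8236 to 12053 in the others. These shares pool all clusters, which differ in the 3 genes, and the parts of cluster and depth were not tested.

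Over 53 sums of a cluster and a library with at least 20 cells, the genes most like Serpina3n in log2 CPM were Stat3 (r = 0.92), a transcription factor of the acute-phase response, C4b (r = 0.92), a complement component, and Nol3 (r = 0.90). Those most like Serpinb1a were Aven (r = 0.94), Selenop (r = 0.93) and Gng11 (r = 0.92). Serpind1 was most like Ermn (r = 0.93), which encodes a myelin cytoskeletal protein, Tspan9 (r = 0.92) and Gal3st1 (r = 0.91), the sulfotransferase that makes sulfatide. Serpine2 had no close partner, with Pantr1 (r = 0.69), Lhfpl2 (r = 0.67) and Grm7 (r = 0.67) at the top. Between members, r was 0.09 for Serpina3n and Serpinb1a, 0.62 for Serpina3n and Serpind1 and 0.67 for Serpinb1a and Serpind1. With Serpine2, r was −0.60 for Serpina3n, −0.48 for Serpind1 and 0.08 for Serpinb1a. These sums share libraries and clusters, and r is a description with no test.

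Of the 19 other serpin genes listed, 8 were frequent enough to be tested in oligodendrocytes or microglia, and none was called in any comparison. Serpinb6a, an intracellular inhibitor, was at 83.7 to 134 CPM in oligodendrocytes, and its log2 difference between wild-type tissues was 0.41 (SE 0.115, adjusted p = 0.199). Serpina3m, which lies 12.5 kb from Serpina3n on chromosome 12, had 0 UMIs in all 3 gray matter libraries and 7, 69, 12, 9 and 30 UMIs in the white matter libraries. It was at least 7.76-fold higher in wild-type and at least 1.81-fold higher in Rag1-/- white matter when the gray matter group is set to 3 counts (adjusted p = 0.0861 and 0.343). Of 109 oligodendrocytes with a Serpina3m UMI, 104 also held Serpina3n, while no 50-base window at the 3′ end of either gene occurs in the other. Serpinf1, a secreted family member without inhibitory activity, was at 49.98 to 87.2 CPM in microglia, and Serpinb9, an inhibitor of granzyme B, at 10.4 to 13.0 CPM. Serpinc1, Serpinh1 and Serpini1 stayed at or below 4.96 CPM, and the 11 serpins not tested never exceeded 0.726 CPM.

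Proteases that serpins can meet, and inhibitors of other families, were followed as lists of 20 genes each. Of 10 proteases tested in oligodendrocytes, 1 was higher in wild-type white matter and none was lower, beside 1.00% of all genes, at a median log2 difference of 0.50 over the list against −0.01 over all genes. It was Klk6, a secreted serine protease of oligodendrocytes, at 44.7 and 27.8 CPM in gray and 203 and 380.1 CPM in white matter (log2 difference 3.10, SE 0.385, adjusted p = 0.0104). In Rag1-/- mice Klk6 was at 40.7 CPM in the single gray matter library and at 219, 222 and 358 CPM in white matter. None was called between genotypes or in Rag1-/- mice. In microglia, where the gray matter arm is 1 library, assumed to vary like the 3 white matter libraries, 2 of 7 were higher in white matter beside 3.13% of all genes called. They were the lysosomal cathepsins Ctsl (log2 difference 0.76, SE 0.124) and Ctsb (0.80, SE 0.147), at a median of 0.76 against 0.02. Ctsl was at 1209 CPM in gray and 1837, 1638 and 1708 CPM in white matter. Ctsb was at 1577 CPM against 2622, 2252 and 2100 CPM. The numbers of genes called higher and lower in microglia moved with the scaling, as given above. Homeostatic cluster 1 was 1634 of 1732 microglia in gray matter and 785 of 3617, 248 of 707 and 577 of 1365 in white matter. The part of this composition in the differences was not tested.

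Of 14 genes tested in oligodendrocytes from the inhibitor list, which also holds Anxa2, 1 was higher and 1 lower in wild-type white matter, beside 1.00% of all genes, at a median of 0.27 against −0.01 over all genes. Anxa2 is known to bind plasminogen and its activator and to promote plasmin formation rather than inhibit a protease. It was at 3.63 and 1.503 CPM in gray and 28.7 and 34.9 CPM in white matter (log2 difference 4.00, SE 0.507, adjusted p = 0.0110). In Rag1-/- mice it was at 1.34 CPM in the single gray matter library and at 11.8, 7.89 and 18.4 CPM in white matter. Timp3, a metalloproteinase inhibitor, was at 14.5 and 9.57 CPM against 1.33 and 0.949 CPM (−3.45, SE 0.413, adjusted p = 0.00890), and it was also lower in Rag1-/- white matter (−2.79, SE 0.347, adjusted p = 0.0193). Timp3 rested on 8 and 42 UMIs in the wild-type white matter libraries. The astrocyte, OPC and neuron markers were also higher in the same gray matter oligodendrocytes, and their part in the Timp3 difference was not tested. Within clusters, between wild-type tissues, Timp3 fell in Oligo1c and Itih5 and Klk6 rose in Oligo2b, beside 0.247% and 0.154% of all genes called there. In microglia, again against 1 gray matter library, 3 of 9 genes of this list, Anxa2 included, were higher in white matter, beside 3.13% of all genes called, at a median of 0.39 against 0.02 over all genes. They were Cst7, a cystatin (3.02, SE 0.184), Anxa2 (4.35, SE 0.483) and Timp2 (0.82, SE 0.127). Timp2 was at 584 CPM in gray and 841, 883 and 898 CPM in white matter. The limits of scaling and cluster composition given for the cathepsins apply here too.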

How the data were processed

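The authors deposited UMI counts per gene and cell, made with Cell Ranger (version 4 on mm10 in the submitters' processing notes). The study's methods name version 4 for the first Rag1-/- batch alone and other versions for the other experiments. The authors had filtered cells on genes, UMIs and mitochondrial RNA, and their UMI limits were not the same in all experiments. They named clusters jointly over both genotypes. The counts are raw and were not normalized. Microglia counts came from the table of all Rag1-/- cells, by the authors' cluster names. A further 8171 cells in the microglia table, from 4 libraries outside this series, were left out. Doublets were not called here. The study's methods name no doublet caller, but state that small clusters rich in microglial markers were taken out of the Rag1-/- data.

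Conditions came from the sample labels, and libraries were the replicates, so p-values measure the spread between libraries alone. Counts were summed per library, or per library and cluster with at least 20 cells. They were fitted with edgeR 4.0.16 under R 4.3.3 (filterByExpr, TMM, two-sided quasi-likelihood F test), without 2 ribosomal RNA genes. Fits of oligodendrocytes held up to 4 groups and started from the 16999 genes listed for both genotypes. The fit of microglia held the 2 Rag1-/- groups and started from the 18886 genes listed for Rag1-/- cells. SE is the log2 difference divided by the square root of F. Levels are sums divided by all UMIs. Thinned shares are exact expectations at 2000 UMIs per cell and were compared with exact permutation tests. Members and gene lists were chosen with earlier results of these data known. The named genes were the 4 members, other serpins passing the filter (not all are reported here), listed proteases and inhibitors that were called, and the 3 genes most like each member among genes with a mean of at least 10 CPM (log2 of CPM + 1). Gray and white matter libraries of a wild-type batch came from the same mice and deviated together (r = 0.409 over 13067 genes), so an alternative fit of these 4 libraries took the mouse pool as a block. Alternatives were RLE scaling, total UMIs alone, no filter, DESeq2 1.42.0, cells under 20000 UMIs, only the 2 groups, other cell minimums and thinning depths, and leaving out each library. Intervals and floors of 3 counts cover counting error alone. The fit was tested on simulated counts first.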

Additional observations from a re-analysis of the deposited data

Results flagged for a closer look

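Cells in neither the oligodendrocyte nor the microglia table enter no comparison above. They were grouped by marker lists (at least 4 of 6 for astrocytes and 3 of 4 for T cells, of which 3 are listed for Rag1-/- cells). In white matter groups of at least 20 such cells, 5 serpin levels from more than 3 UMIs stood out. Each stood above every gray matter group of that size with the same markers and above the oligodendrocytes of the same library. Serpina3n was at 779 CPM in 24 cells with astrocyte markers in wild-type white matter library 2, against 0 and 2.86 CPM in 43 and 152 such cells of wild-type gray matter. That is 201% of its level in oligodendrocytes of the same library, and the summed oligodendrocyte markers were at 53.7% of theirs. In Rag1-/- white matter library 1 it was at 292 CPM in 118 such cells (219% of the oligodendrocyte level, with oligodendrocyte markers at 7.51%), against 4.80 CPM in 616 cells of Rag1-/- gray matter. Rag1-/- white matter libraries 2 and 3 held 16.5 and 68.1 CPM in 205 and 358 such cells, or 13.2% and 29.5% of the oligodendrocyte level, with oligodendrocyte markers at 13.6% and 25.9%. Serpind1 was at 35.6 CPM in the same 24 cells of wild-type white matter, from 10 UMIs. Serpine2 was at 718 CPM in the 118 cells with astrocyte markers of Rag1-/- white matter library 1, against 608 CPM in Rag1-/- gray matter. Serpine2 was at 10.6 CPM in 47 cells with T cell markers of wild-type white matter library 1, from 4 UMIs, against 9.40 CPM from 2 UMIs in 22 such cells of gray matter. These values have no test.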

How the results depend on the processing

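Of the values recomputed for the 4 members over all cells, for Serpina3n in each cluster and for Serpind1 in Oligo2b, 366 stayed on their side of the threshold in the same direction, 26 lost a call, 17 gained one and 5 changed sign. The number of members called between wild-type tissues was 3, and 1 with only the 2 groups in the fit, and 0 to 3 when single libraries were left out. Between genotypes in white matter it was 0, and 1 without the filter and 1 with DESeq2, and 0 to 1 when single libraries were left out. In Rag1-/- microglia it was 0, and 1 with DESeq2, and 0 to 2 when single libraries were left out. Within clusters the calls between wild-type tissues numbered 5, and 2 with at least 50 cells, and 1 to 5 when single libraries were left out. Those between genotypes numbered 1, and 2 with RLE scaling, 2 with total UMIs alone, 5 without the filter and 2 with at least 10 cells, and 1 to 2 when single libraries were left out. The Serpina3n share differed between wild-type tissues by 18.9 percentage points when thinned to 1000 UMIs and 48.6 unthinned, and between genotypes by −17.0 unthinned. Sign changes when single libraries were left out spanned −0.13 to 0.10 for Serpinb1a between wild-type tissues, −0.64 to 0.055 for the Serpina3n difference of tissue differences, −0.21 to 0.017 for Serpine2 in microglia and −0.89 to 0.021 for Serpina3n in IRO between genotypes. The causes were not tested.

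All genes called between wild-type tissues numbered 131, against 282 with DESeq2, 62 with only the 2 groups, 1374 with only the 2 groups and the mouse pool as a block, and 2 to 142 when single libraries were left out (2 without wild-type gray matter library 2). Between genotypes they were 119, against 195 with DESeq2, and between Rag1-/- tissues 57, against 204 with DESeq2, 140 without the filter, 264 without Rag1-/- white matter library 1, 16 without library 2, 29 without library 3, 88 without wild-type white matter library 1 and 37 without wild-type gray matter library 2. In microglia they were 396, against 641 without the filter, 2846 without Rag1-/- white matter library 1 and 188 without library 2. Without Rag1-/- white matter library 1, tissue and batch coincide among the Rag1-/- libraries. The block of mouse pool has 1 residual degree of freedom. Against the fits of all groups it added the call of Serpinb1a in Oligo1a and changed no other call of a member, and against the same 2 groups without the block it added Serpind1 and Serpine2 over all cells. The batch numbers shared by Rag1-/- and wild-type white matter libraries mark different mice (r = 0.0586, 0.138 and −0.0661), and that block gave 111 genes and 0 members called. Levels in the highest cluster of each member moved by less than 1 SD when cells were averaged or thinned. Depth limits Serpine2 in oligodendrocytes (15 to 147 UMIs per library) and the other 3 members in microglia.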
